A study of Rattus norvegicus with 46 samples.

Results

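Oleate, the long-chain fatty acid with a single double bond, was set against its carrier alone in heart muscle cells, and the response was described across all genes detected. The 8 oleate arrays and the 7 control arrays were chosen by their labels and make up 15 of the 46 arrays of the series. The cells were cardiomyocytes isolated from wild-type adult male Wistar rats, plated on laminin and kept overnight in serum-free DMEM before treatment. The oleate group received 0.4 mM oleate carried by defatted bovine serum albumin (BSA, 1%) for 24 h, and the control group received 1% BSA without a fatty acid for the same time. Stearate (8 arrays), linoleate (7 arrays) and palmitate (8 arrays) were given at the same dose on the same carrier for the same time and serve here as further references. Each array was hybridised with RNA of 1 sample, and the labels do not say whether the samples of a group came from separate rats or cultures. The p-values thus reflect how much these samples varied, and that variation may be technical. In such bulk samples, fewer cells of a type and less RNA per cell cannot be told apart.

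Fatty acids that enter a cell are joined to coenzyme A and then either burned in mitochondria and peroxisomes or stored as triglyceride in lipid droplets. They also bind the peroxisome proliferator-activated receptors (PPARs), nuclear receptors that raise transcription of genes for fatty acid uptake, oxidation and storage. In the heart, which draws most of its energy from fatty acids, this programme holds back glucose oxidation when fat is plentiful.

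The 15 arrays detected 3866 to 7446 of the array's probes (17.2% to 33.1%), with a median signal of 145 to 204. Detected means here a detection p-value under 0.01 against the negative-control beads. The number detected averaged 5785 ± 1291 on oleate arrays and 5777 ± 872 on control arrays (SD, n = 8 and 7, two-sided exact permutation p = 0.985). Oleate replicate 8 detected the fewest. Among the control arrays replicates 2 and 4 detected the fewest, 4505 and 4842. Oleate replicate 4 stood apart in another way, with a mean log2 intensity of 11.44 over 21 hypoxia-induced genes against 8.46 to 9.01 on the other 14 arrays. Linoleate replicate 4 and palmitate replicate 4 had like means of 11.51 and 11.52. Palmitate replicate 7 (10.27), linoleate replicate 6 (9.8) and stearate replicate 7 (9.65) lay in between. Counts without these arrays are therefore given beside the comparisons they enter. The cells carried most markers of their label. Of 20 cardiomyocyte markers 19 were on the array and 17 were detected widely enough to be tested, while Actc1 and Ckmt2 were detected nowhere. The 17 had summed intensities of 272000 to 368000 (median 312000) with oleate and 333000 to 380000 (median 335000) in controls. Of the 17, 3 had a higher mean with oleate, and their median log2 difference was -0.17. Of the smooth muscle and pericyte markers 3 of 10 were tested (Smtn, Cspg4 and Des), with summed intensities of 32400 to 44000 with oleate and 32100 to 48800 in controls. Another 5, Cnn1, Rgs5, Kcnj8, Mylk and Notch3, were detected nowhere, and which cells gave the signal of the 3 was not tested. None of the 10 adipocyte markers, Adipoq, Plin1 and Pparg among them, and 1 of the 9 endothelial markers on the array (Cldn5) was tested, and Cdh5, Tek and Vwf were detected on none of the 15 arrays. The summed intensity of tested endothelial markers, Cldn5 alone, was 73.9 to 130 with oleate, against 82.3 to 107 in controls. For leukocytes, 3 of 11 markers were tested, with summed intensities of 160 to 338 with oleate and 214 to 343 in controls, and Ptprc and Itgam were detected nowhere. For fibroblasts, 5 of 12 were tested, with sums of 2300 to 6570 with oleate and 2320 to 8400 in controls, and Col1a1 was detected nowhere.

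Few genes passed the test, and most of those that did were higher with oleate. Of 7182 genes tested, 41 passed the test (0.571%), 37 higher (0.515%) and 4 lower (0.0557%), at an adjusted p under 0.05 in limma. At an unadjusted p under 0.05 the balance was the other way, with 113 genes higher and 192 lower. These 305 are a share of the 7182 under the 0.05 that such a threshold passes when no gene differs, so no tendency is read from them. Of the 41, 30 of the rises and 3 of the falls were at least 2-fold, and 10 rises were at least 4-fold. The median log2 change over all genes was -0.01, and the 95% interval of a gene's change reached a median of 0.477 to either side on the log2 scale. For 16 of the 37 rises every oleate array lay above every control array, and across all genes tested such a separation was found for these same 16 (0.223%). Of the 37 rises, 29 belonged to at least 1 list of metabolic genes. The share of all genes tested that belong to such a list was not counted, and the lists were chosen with earlier results of these data known. Of the 37, 20 were detected on all 7 control arrays and 7 on none. Without oleate replicate 4 there were also 41 genes (38 higher and 3 lower, 36 of them shared), and without replicates 4 and 8 there were 45 (42 and 3, 37 shared). Without control replicate 2 there were 34 (33 shared), and without control replicate 4 there were 36 (35 shared). With median scaling of the arrays in place of quantile normalization 13 genes passed, 12 higher and 1 lower, all among the 41.

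**Figure D1:**
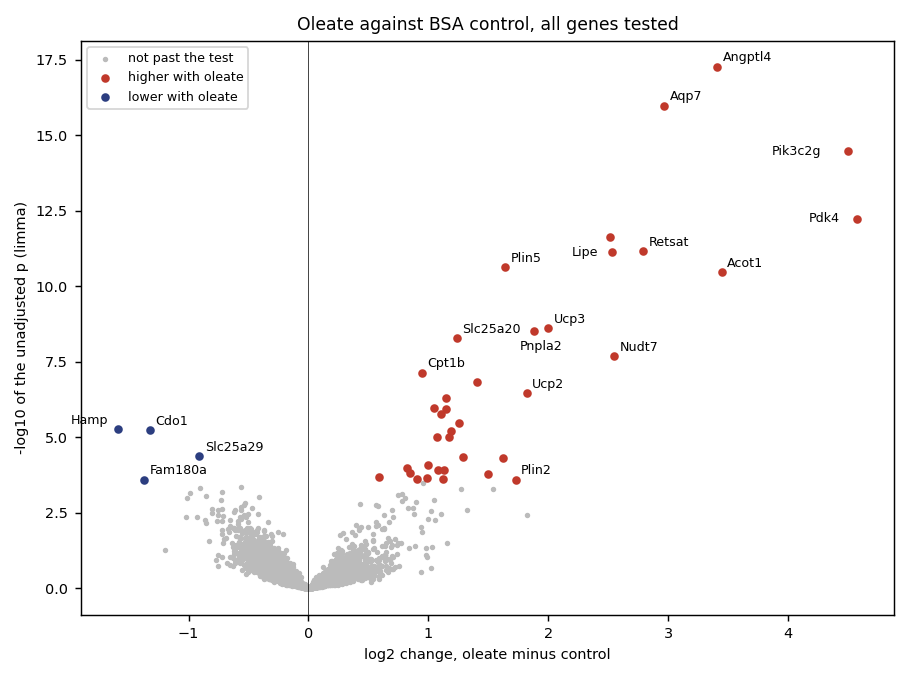
Each point is 1 of the 7182 genes tested, with its log2 change (oleate minus control) across and -log10 of its unadjusted limma p upwards. The 37 coloured points on the right rose and the 4 on the left fell, and Pik3c2g has a log2 change of 4.50. Positions of genes detected on few arrays of the lower group, Pdk4 among them, are fitted values and no measured folds.

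Pdk4 and Pik3c2g stood out by the size of their rise. Pdk4 is the kinase that inactivates pyruvate dehydrogenase and so holds back glucose oxidation. Its log2 intensity was 10.43 at the lowest, 11.97 at the median and 12.52 at the highest oleate array, against 6.21, 7.21 and 8.16 in controls. Every oleate array was above every control array, and Pdk4 was detected on 8 of 8 oleate and 3 of 7 control arrays. It was at least 21.14-fold higher with oleate (adjusted p = 1.05e-09). The fold is a bound because most control arrays did not measure the gene, and it sets their undetected values at the lowest detected signal of the array. Such a bound allows for missing detection and not for the spread between samples. The 95% interval of the fitted log2 change of Pdk4 was 3.65 to 5.51, and its lower end is a smaller fold than the bound. Pik3c2g, a class II phosphoinositide 3-kinase, ran from 11.59 through a median of 12.14 to 12.60 with oleate, against 6.07, 7.84 and 8.99 in controls. The 8 oleate arrays lay close together while the control arrays were spread widely, and the rise was 22.6-fold (log2 change 4.50 ± 0.39 SE, adjusted p = 8.19e-12). Pik3c2g was detected on 5 of 7 control arrays, so this fold rests in part on undetected values. Angptl4, a secreted inhibitor of lipoprotein lipase, had the smallest p of all genes. It lay between 9.07 and 10.01 (median 9.51) with oleate and between 5.94 and 6.56 (median 6.14) in controls, where it was detected on no array. It was at least 6.28-fold higher (adjusted p = 3.87e-14). A second probe for Angptl4, dimmer than the first, differed by 0.91 on the log2 scale and was detected on 6 of 8 oleate and 0 of 7 control arrays.

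**Figure D2:**
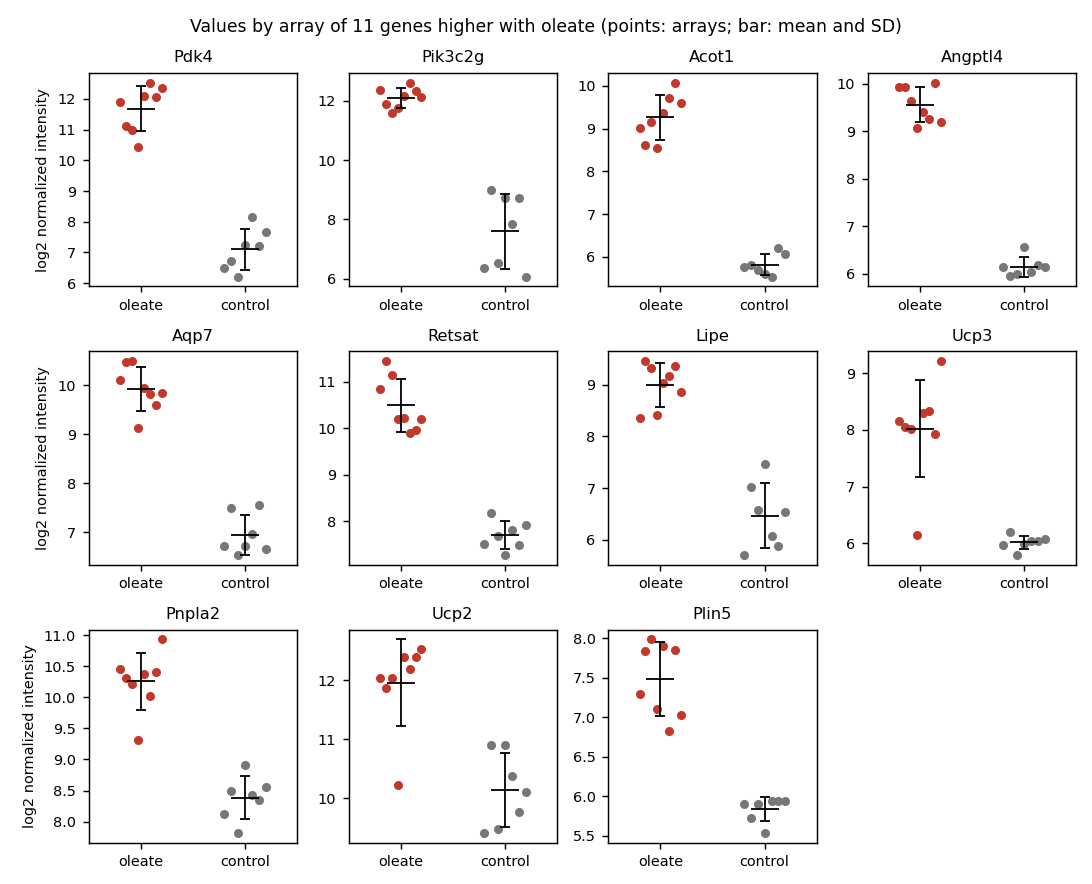
Points are log2 normalized intensities of single arrays (8 oleate on the left, 7 control on the right of each panel) and bars are the mean and SD. The 11 genes passed under every setting tried, and each panel has its own axis. In 9 panels the groups do not overlap, while in those of Ucp3 and Ucp2 the lowest oleate array, at 6.15 and 10.23, lies within the control range.

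Genes that bring fatty acids in and control their coenzyme A esters rose in part. Of 20 tested members of the list for uptake, activation and thioesterases 5 rose and 0 fell, against 0.515% higher over all genes, and the list's median log2 change was 0.44. Acot1, a thioesterase that frees long-chain fatty acids from coenzyme A in the cytosol, had 8.55, 9.26 and 10.07 as its lowest, median and highest log2 intensity with oleate, against 5.53, 5.76 and 6.21 in controls. It was detected on every oleate array and no control array, and was at least 5.13-fold higher (adjusted p = 2.69e-08). Nudt7, a peroxisomal hydrolase of coenzyme A, rose 5.84-fold (log2 change 2.55 ± 0.38 SE, adjusted p = 1.11e-05), although its ranges of 8.45 to 11.07 with oleate and 6.14 to 9.02 in controls overlapped. Nudt7 was detected on 4 of 7 control arrays, and control replicates 2 and 4 were the lowest, at 6.16 and 6.14. Acsl1, the main long-chain acyl-CoA synthetase of the heart, rose 2.29-fold (1.19 ± 0.23 SE). Slc27a1, a fatty acid transport protein, was at least 1.28-fold higher, with 5 oleate arrays and no control array detecting it (adjusted p = 0.0261), and it passed under 15 of 27 alternatives. Acot7, another thioesterase, passed the test too (adjusted p = 0.0237) but was detected on 4 of 8 oleate arrays and no control array, so no fold is given. Acot7 passed under 19 of 27 alternatives. Acot2, close to Acot1 in sequence, was detected on 3 oleate arrays and did not pass (log2 difference 0.83, adjusted p = 0.229). Neither did Cd36, the chief fatty acid uptake protein, which had a median of 12.23 with oleate and 10.77 in controls (1.32 ± 0.41 SE, adjusted p = 0.247). With genes not measured in controls placed at their bound, the list's median was 0.18. With median scaling 1 of the 20 rose, Acot1.

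The carnitine shuttle, which carries fatty acids into mitochondria, rose at several of its steps. Cpt1a and Cpt1b, the liver and muscle forms of the carnitine palmitoyltransferase at the entry, both passed the test. Cpt1b ran from 10.59 through 10.83 to 11.10 with oleate, against 9.45, 9.88 and 10.51 in controls, and rose 1.93-fold with no overlap (0.95 ± 0.15 SE, adjusted p = 3.64e-05). Cpt1a, dimmer, was detected on 6 oleate and 2 control arrays and was at least 2.22-fold higher (adjusted p = 0.0123). Slc25a20, the carnitine-acylcarnitine exchanger of the inner membrane, had 9.78, 10.53 and 10.90 with oleate, against 8.58, 9.20 and 9.76 in controls. It rose 2.36-fold, again without overlap (1.24 ± 0.17 SE, adjusted p = 3.13e-06). Crat, carnitine acetyltransferase, rose 2.22-fold, and Mlycd, which breaks down the Cpt1 inhibitor malonyl-CoA, rose 2.1-fold.

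Within mitochondrial beta-oxidation, auxiliary enzymes rose while the core enzymes named below did not pass the test. Decr1 and Eci2 are a dienoyl-CoA reductase and an enoyl-CoA isomerase needed for fatty acids with double bonds. With the saturated stearate and palmitate both passed against control too. The log2 changes were 0.7 and 0.97 for Decr1 and 1.21 and 1.11 for Eci2. Decr1 lay between 12.47 and 13.72 (median 12.88) with oleate and between 11.24 and 12.29 (median 11.84) in controls, and rose 2.39-fold without overlap (1.26 ± 0.24 SE, adjusted p = 0.00117). Eci2 rose 2.44-fold (1.29 ± 0.28 SE, adjusted p = 0.0111), with oleate replicate 8 at 8.46 and the other oleate arrays higher. Its lowest control arrays were replicates 2 and 4, at 8.17 and 8.02. Eci2 passed under 22 of 27 alternatives and was lost without either of these control arrays. Etfdh, which passes electrons from the dehydrogenases to the respiratory chain, rose 2.16-fold (1.11 ± 0.20 SE). The acyl-CoA dehydrogenases did not pass the test, with log2 differences of 0.10 for Acadvl, 0.13 for Acadm and 0.29 for Acadl. The subunits of the trifunctional protein did not pass either, at 0.56 for Hadha (adjusted p = 0.2) and 0.58 for Hadhb (adjusted p = 0.211). In all, 8 of 25 members of the beta-oxidation and carnitine shuttle list rose and 0 fell, against 0.515% higher over all genes. The list's median log2 change was 0.56. With median scaling 0 of the 25 passed and the median was 0.41.

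In peroxisomes, which shorten fatty acids that mitochondria handle poorly, 3 of 19 list members rose and 0 fell, against 0.515% higher over all genes. The list's median log2 change was 0.18. Ech1, a dienoyl-CoA isomerase, was bright in every array and rose 2.65-fold. Its log2 intensities were 13.08, 13.85 and 14.14 with oleate, against 11.88, 12.30 and 12.91 in controls, and the groups did not overlap (1.41 ± 0.23 SE, adjusted p = 6.73e-05). Pex19, which delivers membrane proteins to peroxisomes, rose 1.81-fold (adjusted p = 0.0315) and passed under 12 of 27 alternatives. A second Pex19 probe, detected on 3 oleate and 1 control arrays, differed by 0.15 on the log2 scale. Pex11a, a PPAR target of peroxisome division, did not pass (0.96, adjusted p = 0.0574). The count of rises in this list was 2 without oleate replicate 8 and 0 with median scaling.

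The mitochondrial carriers Ucp3 and Ucp2 rose as well. Ucp3, the uncoupling protein of muscle, had 6.15, 8.11 and 9.21 with oleate, against 5.80, 6.04 and 6.19 in controls. One oleate array, replicate 4, was at the control level, the other 7 were above all controls, and the gene was at least 2.16-fold higher (adjusted p = 1.75e-06). Ucp2 was detected on all 15 arrays and rose 3.54-fold (1.82 ± 0.31 SE, adjusted p = 1.55e-04), and its lowest oleate array was again replicate 4. Without that replicate the log2 changes of Ucp3 and Ucp2 were 2.27 and 2.07.

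Among genes of the lipid droplet, lipases and a glycerol channel rose, while the enzymes named here that assemble triglyceride did not pass. Aqp7, the channel through which glycerol leaves the cell, had 9.13, 9.89 and 10.49 as its lowest, median and highest log2 intensity with oleate, against 6.54, 6.73 and 7.55 in controls. It rose 7.86-fold without overlap (2.97 ± 0.23 SE, adjusted p = 3.81e-13). Aqp7 was detected on 4 of 7 control arrays, so the fold rests in part on undetected values. Lipe, hormone-sensitive lipase, had 8.35, 9.10 and 9.45 with oleate, against 5.71, 6.53 and 7.46 in controls. The groups did not overlap. Lipe was detected on 2 control arrays and was at least 4.15-fold higher (adjusted p = 7.69e-09). Pnpla2, the lipase that takes the first fatty acid from triglyceride, had 9.32, 10.35 and 10.94 with oleate, against 7.81, 8.44 and 8.91 in controls. The groups did not overlap, and the rise was 3.67-fold (1.88 ± 0.26 SE, adjusted p = 1.90e-06).

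Among the droplet coat proteins Plin5, which ties droplets to mitochondria, had 6.82, 7.57 and 7.99 with oleate, against 5.53, 5.90 and 5.94 in controls. It was detected on 6 oleate arrays and no control array, and was at least 1.49-fold higher (adjusted p = 2.04e-08). Plin2, the most widely used marker of lipid loading, had 9.46, 10.11 and 12.65 with oleate, against 8.32, 8.51 and 9.67 in controls. Its ranges overlapped, its highest value was that of oleate replicate 4, and it rose 3.31-fold (1.73 ± 0.44 SE, adjusted p = 0.0447). Without that array Plin2 did not pass (log2 difference 1.41, adjusted p = 0.173), and it passed under 10 of 27 alternatives, being lost also without any of 6 single control arrays. Cidea, a protein that enlarges droplets, rose 2.0-fold (adjusted p = 0.0196) and passed under 18 of 27 alternatives. Dgat1 and Dgat2, which make triglyceride, did not pass, with log2 differences of -0.01 and 0.67, and Gpam, the first enzyme of the route, was at 0.81 (adjusted p = 0.137). Fitm2, which helps droplets bud, was at 1.54 (adjusted p = 0.0823), and Plin4 at 0.99. In all, 6 of 21 members of the triglyceride and droplet list rose and 0 fell, against 0.515% higher over all genes. The list's median was 0.26, or 0.18 with unmeasured genes at their bound.

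The other rises lay outside these routes. Retsat, retinol saturase, had 9.89, 10.22 and 11.44 with oleate, against 7.28, 7.69 and 8.19 in controls. Every oleate array exceeded every control array, and the rise was 6.9-fold (2.79 ± 0.30 SE, adjusted p = 7.69e-09). Of 23 phospholipid and sphingolipid enzymes 2 rose and 0 fell, against 0.515% higher over all genes, with a median of -0.01. These were Chkb, a choline kinase (1.17 ± 0.24 SE, adjusted p = 0.00276), and Lpcat3, which puts polyunsaturated chains into phospholipids (1.15 ± 0.21 SE, adjusted p = 4.38e-04). The Lpcat3 probe used was detected on 6 of 8 oleate and 4 of 7 control arrays. The other Lpcat3 probes, 3 in number, were detected on at most 3 oleate arrays, with log2 differences of 0.01 to 0.50. Impa2, an inositol monophosphatase, had 10.03, 10.60 and 11.01 with oleate, against 9.27, 9.47 and 9.84 in controls, and rose 2.07-fold without overlap (adjusted p = 4.38e-04). Por, the electron donor of cytochromes P450, rose 2.19-fold and Plpp3, a lipid phosphate phosphatase, 2.17-fold. Serpine2, a protease inhibitor, rose 1.87-fold, and Ephx2, soluble epoxide hydrolase, 1.51-fold. The adjusted p of these last 4 lay between 0.0263 and 0.0447, and each was lost under many alternatives. Of 27, Por passed under 16, Ephx2 under 13, and Plpp3 and Serpine2 under 12 each. Without oleate replicate 4 the adjusted p of Por and Plpp3 was 0.0954 and 0.136, and without replicate 8 that of Serpine2 was 0.115. Both remaining rises carry placeholder names, LOC500621 (log2 change 1.5) and LOC499984 (0.99). They passed under 15 and 12 of 27 alternatives, and both were lost without control replicate 2 and without control replicate 4.

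Hamp, Cdo1, Fam180a and Slc25a29 were the 4 genes that fell. Hamp, the iron hormone hepcidin, had 8.01, 8.78 and 9.87 with oleate, against 9.47, 10.44 and 10.87 in controls. The ranges overlapped and the fall was 3.02-fold (log2 change -1.59 ± 0.31 SE, adjusted p = 0.00174). Cdo1, cysteine dioxygenase, had 7.03, 8.03 and 8.92 with oleate, against 8.49, 9.26 and 10.42 in controls, and fell 2.49-fold (-1.32 ± 0.26 SE, adjusted p = 0.00182). Slc25a29, a mitochondrial carrier of basic amino acids, was detected on 2 oleate arrays and all 7 control arrays. Every oleate array lay below every control array, as for 2 of all genes tested (0.0278%), and it was at least 1.34-fold lower (adjusted p = 0.011). The other was Ifitm10, which did not pass (-0.61, adjusted p = 0.628). Fam180a fell 2.59-fold (adjusted p = 0.0447), with a value of -1.19 and an adjusted p of 0.161 without oleate replicate 4, and passed under 10 of 27 alternatives.

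Of the 41 tested PPAR targets 19 rose and 0 fell, a share of 46.3% against 0.515% of all genes, with a median log2 change of 0.96 against -0.01. With genes not measured in controls at their bound the median was 0.90, and with median scaling 9 of the 41 rose. The count was 21 without oleate replicate 4. Members that did not pass included Lpl, lipoprotein lipase (-0.19), Vnn1 (-0.44), Acadm (0.13) and Cyp4a1 (0.13). The list was chosen with earlier results of these data known.

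Promoter sequences were looked up because 19 of the rises were listed PPAR targets. RefSeq promoters of the rat assembly GRCr8 were found for 31 of the 39 called genes with a name, 28 of them rises, and the 250 bases before each start were searched on both strands. The PPAR element DR1, searched as 2 copies of AGGNCA in the same direction with 1 base between them, was in 0 of the 31 and in 0.353% of all 27457 promoters. Its stricter form, with AGGTCA for both copies, was in 0 and in 0.0546%. A single copy of AGGTCA was in 5 of the 31, all rises, and in 13.7% of all promoters. Any match to the stricter DR1 would also hold this motif. The matches are printed below along the strand of the gene, with the motif in capitals, or its reverse complement TGACCT where it lies on the other strand. They are shown so that the letters around each match can be read, and a match is a description and no evidence of binding. No match says only that these letters are not in this window.
Ucp3, chr1:164227728-164227787, plus strand, capitals at -155 to -150 from the start: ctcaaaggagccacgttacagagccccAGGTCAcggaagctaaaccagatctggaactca
Ucp3, chr1:164227833-164227892, plus strand, capitals at -50 to -45: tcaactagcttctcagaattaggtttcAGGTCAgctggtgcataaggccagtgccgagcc
Retsat, chr4:106211254-106211313, plus strand, capitals at -178 to -173: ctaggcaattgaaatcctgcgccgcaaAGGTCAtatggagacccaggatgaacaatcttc
Plin5, chr9:1033409-1033468, minus strand, capitals at -157 to -152: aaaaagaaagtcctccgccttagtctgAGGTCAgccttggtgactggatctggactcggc
Por, chr12:26635994-26636053, minus strand, capitals at -217 to -212: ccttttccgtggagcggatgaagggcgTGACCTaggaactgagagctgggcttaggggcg
Slc27a1, chr16:18312717-18312757, plus strand, capitals at -242 to -237: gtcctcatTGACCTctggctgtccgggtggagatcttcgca

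Outside fatty acid handling, lists of the heart cell's other functions held almost no gene past the test. Of 29 tested genes of pyruvate oxidation and the citric acid cycle Pdk4 alone rose and 0 fell, and the other kinases of pyruvate dehydrogenase measured, Pdk1 and Pdk2, had log2 differences of -0.16 and -0.25. Of 32 genes of oxidative phosphorylation 0 passed, with a median of -0.09. Of 25 genes of glucose uptake and glycolysis 0 passed, with the insulin-dependent transporter Slc2a4 at -0.80 (adjusted p = 0.247). In the list of insulin signalling and FOXO targets Pik3c2g and Pdk4 rose and the other 15 of 17 did not pass. Over all genes 0.515% were higher.

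Stress lists were also without calls between oleate and control. Of 21 ER stress genes 0 passed, with a median of -0.24 and a range of -0.63 to 0.26. Of 28 genes of the ATF4 and amino acid response 0 passed, with a median of -0.11, and its lowest member was Nupr1 at -0.99 (adjusted p = 0.106). The lists of heat shock proteins, NRF2 targets, NF-kB targets, p53 targets and immediate early genes had 0 calls and medians between -0.23 and 0.06. In the hypoxia list 0 of 21 passed. Its median of 0.19 became -0.09 without oleate replicate 4. The list of cholesterol synthesis and uptake had 0 calls of 21 and a median of 0.28, and fatty acid synthesis and desaturation had 0 of 11 and 0.05. Lists of sarcomere proteins, calcium handling, ion channels and fetal or hypertrophic genes had 0 calls, with medians between -0.08 and -0.02. These arrays do not exclude differences in such genes that are as large as their intervals, and some of over 2-fold, such as that of Fitm2, did not pass.

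**Figure D3:**
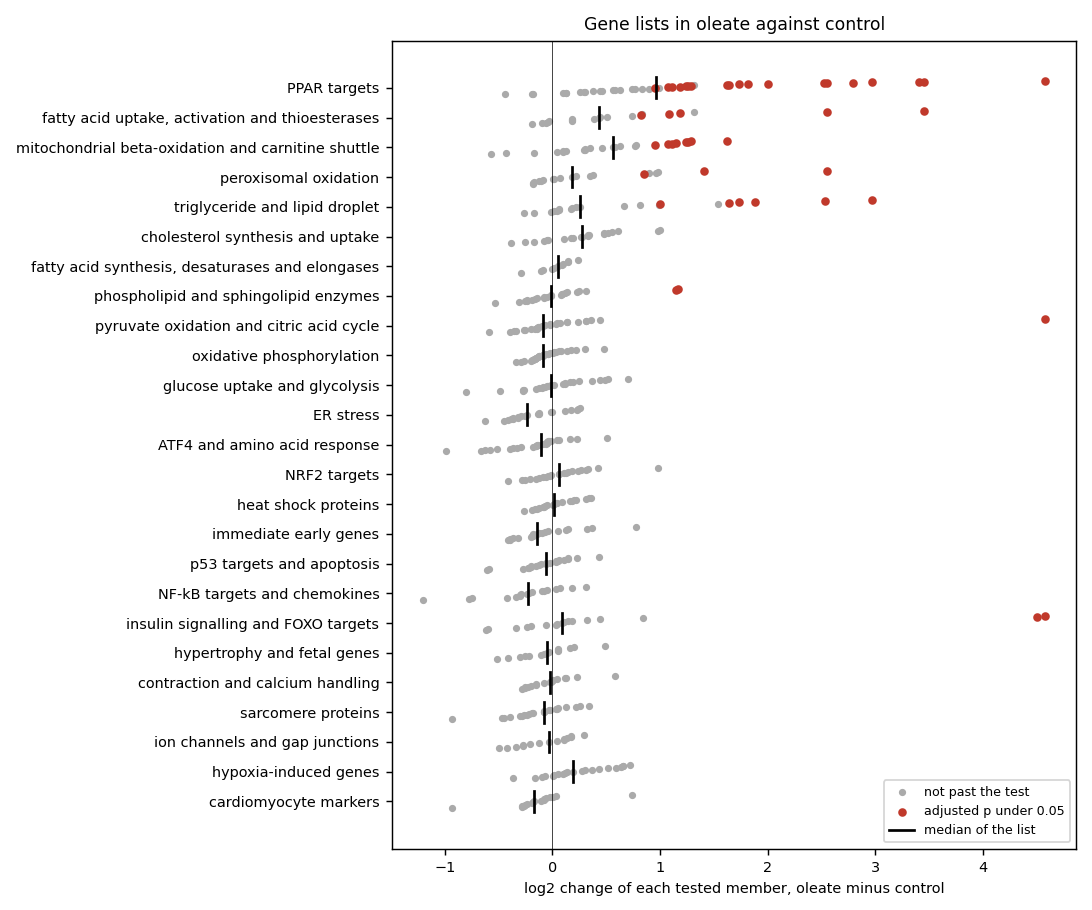
Each point is a tested member of a gene list at its log2 change, oleate minus control. Coloured points passed the test and the black bar is the list's median, which is 0.96 for the PPAR targets and -0.24 for ER stress genes. All coloured points lie to the right of 0 and nearly all in the upper rows, which hold lists of fatty acid handling.

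Palmitate, stearate and linoleate were given at the same dose and time, so that the oleate response could be set beside theirs. Comparisons with control share the control arrays, and the values of the 41 genes are given side by side without a test of likeness. Pdk4 and Angptl4, which most control arrays did not measure, are given as mean log2 intensities. Pdk4 averaged 11.68 with oleate, 11.31 with stearate, 10.77 with linoleate and 11.23 with palmitate. The stearate mean of Pdk4 includes replicate 4 at 7.48, while the other stearate arrays lay between 11.18 and 12.91. No order of oleate and stearate is read from these means. Angptl4 averaged 9.55 with oleate, 7.41 with stearate (detected on 4 of 8 arrays), 9.22 with linoleate and 8.88 with palmitate. The log2 change of Retsat against control was 2.79 with oleate, 1.66 with stearate, 2.59 with linoleate and 2.22 with palmitate. For Plin2 the saturated fatty acids had the larger log2 changes, with 1.73 for oleate, 2.88 for stearate, 1.72 for linoleate and 2.88 for palmitate. The log2 change of Hamp was -1.59 with oleate, 1.03 with stearate, -1.12 with linoleate and -1.29 with palmitate, so that the stearate arrays alone had a higher mean than control. Since the 41 genes were chosen on the oleate arrays, a larger oleate value among them was favoured by the choice.

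**Figure D4:**
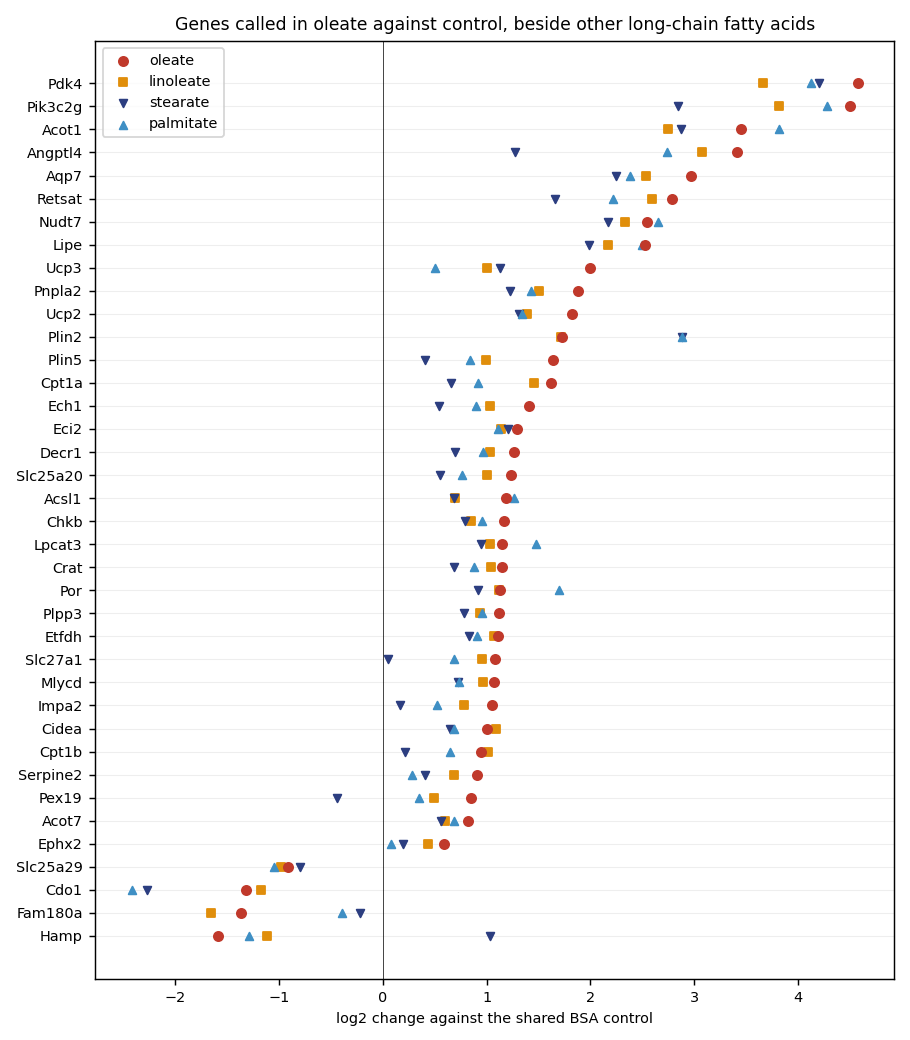
Named genes that passed in oleate against control, 38 of 39, are listed downwards, and each symbol is the log2 change of 1 fatty acid against the shared control arrays. Oleate (circles) lies to the right of stearate (downward triangles) for most rises, Plin2 being an exception at 1.73 against 2.88, and Hamp is above 0 for stearate alone. Values of genes not detected on most arrays of a group are fitted and no measured changes.

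Linoleate has the same chain length as oleate with 1 more double bond, and no gene passed between them (8 and 7 arrays). The count was 0 of 7182 in limma (0%), with 35 genes at an unadjusted p under 0.05 and a smallest adjusted p of 0.79. For 33 of the 41 oleate-responsive genes the 95% interval of the difference lay within 1 on the log2 scale to either side, and for 37 it included 0. Those whose interval did not include 0 were higher with oleate, among them Ucp3 (0.46 to 1.55), Plin5 (0.27 to 1.02) and Acsl1 (0.03 to 0.97). Ucp3 averaged 8.02 ± 0.86 with oleate and 7.01 ± 0.44 with linoleate, and was detected on 7 of 8 and 4 of 7 arrays (SD). Without oleate replicate 4, 2 genes passed, Ucp3 among them (log2 difference 1.27, adjusted p = 0.0143). Without oleate replicate 8, or without linoleate replicate 4 or 6, the count was 0. The lack of calls does not show that both fatty acids act alike.

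Stearate has the same chain length with no double bond. Stearate replicates 5 to 8 detected 3700, 4143, 4632 and 3090 probes and replicates 1 to 4 detected 5686 to 7220, against 3866 to 7446 on the oleate arrays. How far this bears on the numbers of stearate arrays that detected a gene was not tested. In stearate replicate 4, Pdk4 stood at 7.48, within the control range of 6.21 to 8.16, while the other 7 stearate arrays lay between 11.18 and 12.91, so this array stood apart from the others of its label. Oleate differed from stearate in 497 genes (6.92%), of which 334 were higher (4.65%) and 163 lower (2.27%), with 89 and 75 of them by at least 2-fold. Without stearate replicate 4 there were 710 (476 higher and 234 lower, 485 shared), without oleate replicate 4 there were 743 (471 shared), and without oleate replicate 8 there were 385 higher and 183 lower (433 shared). Without stearate replicate 7 there were 438 (298 higher and 140 lower, 407 shared). Arrays of the same replicate number deviated together in these groups, and with the number as a block 999 genes passed, 671 higher and 328 lower. The share of higher calls was 67.2% with quantile normalization and 96.7% with median scaling (760 higher and 26 lower), which moved the median over all genes by 0.37 on the log2 scale.

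Several of the genes that oleate raised were higher with oleate than with stearate. Of the 41, 14 were higher and 2 lower, and these counts are no independent evidence because the same oleate arrays chose the genes. The 14 include Cdo1, which oleate lowered, with log2 changes against control of -1.32 for oleate and -2.27 for stearate. Angptl4 averaged 9.55 ± 0.37 with oleate and 7.41 ± 0.71 with stearate (SD, n = 8 each), a 4.42-fold difference (2.14 ± 0.24 SE, adjusted p = 7.33e-08). Ucp3 was detected on 7 oleate arrays and 1 stearate array and was at least 1.49-fold higher with oleate. Pik3c2g was 3.15-fold higher with oleate (1.66 ± 0.38 SE, adjusted p = 0.0029), whereas Pdk4 did not differ past the test (0.37, 95% interval -0.52 to 1.27). Stearate replicate 4 enters both differences. It lay at 8.1 for Pik3c2g and 7.48 for Pdk4, against 10.2 to 11.3 and 11.18 to 12.91 on the other stearate arrays. Outside the 41, Lpcat1, a lysophosphatidylcholine acyltransferase, was detected on 7 oleate arrays and 1 stearate array and was at least 1.35-fold higher (adjusted p = 6.40e-07). Pik3ip1, an inhibitor of phosphoinositide 3-kinase, was 3.78-fold higher (1.92 ± 0.33 SE, adjusted p = 1.05e-04). G0s2, an inhibitor of the lipase Pnpla2, was 4.06-fold higher (2.02 ± 0.62 SE, adjusted p = 0.0349) and did not pass without oleate replicate 4 (adjusted p = 0.0599).

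Genes lower with oleate than with stearate were led by Nppb, brain natriuretic peptide, at 10 ± 1.29 with oleate and 12.85 ± 0.84 with stearate (SD, n = 8 each). The difference was 7.22-fold (-2.85 ± 0.46 SE, adjusted p = 3.82e-05). Ccl20, a chemokine, was 6.79-fold lower with oleate (adjusted p = 7.11e-05), and Hamp 6.18-fold lower (-2.63 ± 0.30 SE, adjusted p = 8.10e-08). Sgk1, a kinase that regulates ion channels, was 5.74-fold lower (adjusted p = 3.33e-06), and Abra, an actin-binding activator of muscle transcription, 4.83-fold lower (adjusted p = 3.86e-07). Over all genes 2.27% were lower and 4.65% higher than with stearate. Of 15 fetal and hypertrophic genes 8 were lower and 0 higher, with a median of -0.83 against 0.05 over all genes. Of 21 immediate early genes 11 were lower and 0 higher (median -0.74), among them Egr1 at -2.08 and Fos at -1.97. Of 21 ER stress genes 6 were lower and 0 higher (median -0.45). With median scaling these 3 counts of lower genes were 3, 4 and 1, with 1 higher in the first list. In the cholesterol list 9 of 21 were higher and 0 lower (median 0.71), with Hmgcs1, an enzyme of the pathway, at 1.47, and the count was also 9 with median scaling.

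Palmitate is both shorter and without a double bond. Oleate differed from it in 321 genes (4.47%), 83 higher (1.16%) and 238 lower (3.31%), with 27 and 119 by at least 2-fold. Without oleate replicate 4 there were 698 (287 higher and 411 lower, 320 shared). Without palmitate replicate 4 there were 265, 62 higher and 203 lower, and without oleate replicate 8 there were 264, 70 higher and 194 lower. Without palmitate replicate 7 there were 236, 60 higher and 176 lower. The share of higher calls was 25.9%, and with median scaling, where 78 genes passed, it was 12.8%.

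Genes of the ER stress and ATF4 lists were lower with oleate than with palmitate. Dnajb9, a co-chaperone of the ER, averaged 7.88 ± 1.51 with oleate and 10.79 ± 0.66 with palmitate (SD, n = 8 each). The difference was 7.53-fold (-2.91 ± 0.53 SE, adjusted p = 3.32e-04). Zfand2a, a proteasome-binding protein induced by arsenite, was 6.51-fold lower with oleate (-2.70 ± 0.30 SE, adjusted p = 4.83e-08). Otud1, a deubiquitinase, and Nppb were each 6.15-fold lower (adjusted p = 1.12e-04 and 1.64e-04), and Fosl1, an AP-1 subunit, 5.09-fold lower (adjusted p = 1.91e-05). Over all genes 3.31% were lower and 1.16% higher than with palmitate. Of 21 ER stress genes 16 were lower and 0 higher, with a median of -1.12 against 0.03 over all genes. Of 28 genes of the ATF4 response 23 were lower and 0 higher (median -1.11), among them Atf3 at -2.32 and Asns, asparagine synthetase, at -1.66. Of 21 immediate early genes 11 were lower and 0 higher (median -1.01). With median scaling the 3 counts were 7, 15 and 6, all lower.

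Genes higher with oleate than with palmitate included some of lipid metabolism. Ucp3 was detected on 7 oleate and 2 palmitate arrays and was at least 2.07-fold higher (adjusted p = 1.64e-04). Lpcat1, detected on the same numbers of arrays, was at least 2.03-fold higher (adjusted p = 3.35e-05). Hmgcs1 was 2.44-fold higher (1.29 ± 0.32 SE, adjusted p = 0.00846). Of 21 members of the cholesterol list 6 were higher and 0 lower (median 0.60), against 1.16% higher over all genes. With median scaling that count was 2. Pik3ip1 was 2.66-fold higher (adjusted p = 0.00492). Gpr22, an orphan receptor of the heart, was 3.39-fold higher (adjusted p = 0.0475) and did not pass without oleate replicate 8 (adjusted p = 0.0663). Both lost their call with median scaling. Of the 41 genes that responded to oleate 5 were higher than with palmitate and 0 lower. The 5 include Cdo1, with log2 changes against control of -1.32 for oleate and -2.42 for palmitate.

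**Figure D5:**
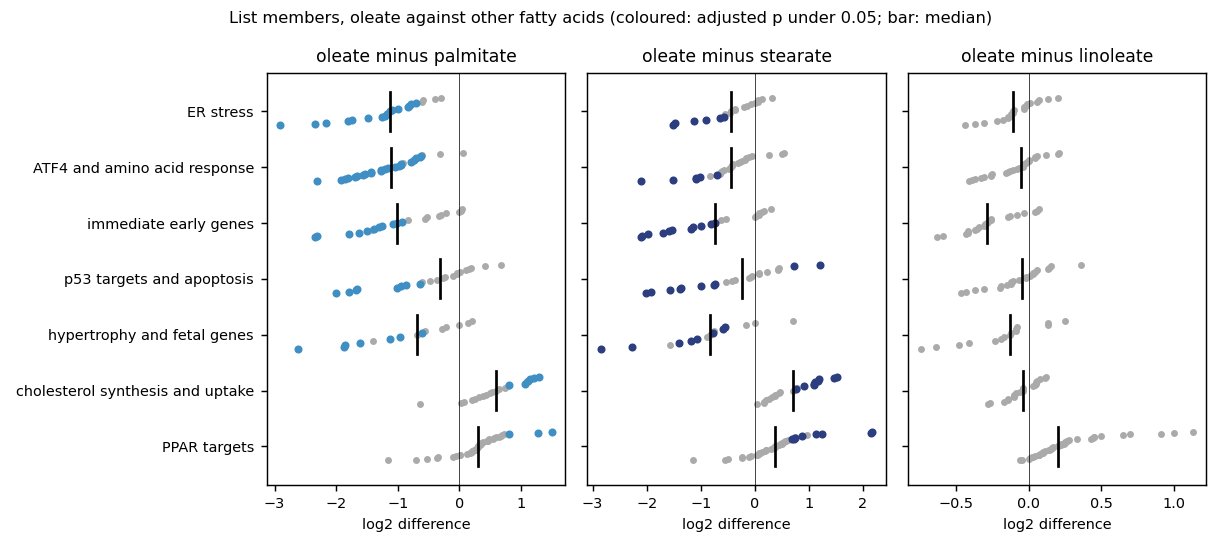
Members of 7 gene lists are placed at their log2 difference, oleate minus the fatty acid named above each panel, with coloured points past the test and a black bar at the median. The bars of the stress rows lie left of 0 against palmitate (-1.12 for ER stress) and stearate (-0.45), and no point is coloured in the linoleate panel. Each panel has its own horizontal scale.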

How the data were processed

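RNA of 46 samples was measured on Illumina rat BeadChips, 15 of them oleate or BSA control. The deposited table gives, per the file headers, a mean bead intensity and a detection p-value for each probe and array, and it was made with BeadStudio version 3 per the submitters' processing notes. The intensity is neither background-subtracted nor normalized, as its values show. The authors' deposited value table holds linear signal that is quantile-normalized and not centred (column medians of 173.2 to 173.9). All 46 of its columns correlate best with their own array, and it was used as an alternative.

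Intensities were background-corrected with limma 3.58.1 (R 4.3.3, normexp fitted from detection p-values, offset 16), normalized by quantiles and log2-transformed. Probes whose detection p was under 0.01 on at least 7 arrays were kept (7312), with the brightest probe for each of 7182 genes. Of 123 genes with more than 1 probe, disagreements are named where they touch a result, and 851 genes have placeholder names. Of 22517 probes 17283 matched RefSeq gene names and 5037 kept the symbol of the file. A mean for each of the 6 groups, octanoate included, was fitted over all 46 arrays (eBayes with trend, two-sided, Benjamini-Hochberg, threshold 0.05). A fold is a bound where the lower group detected the gene on at most 3 arrays, and such a bound leaves out the spread between samples. The number of arrays limits the precision.

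Genes named by rule were the 15 largest rises and falls, 8 fatty acid response genes, up to 5 members of each list with at least 3 calls, and the 5 largest differences each way against other fatty acids. Other called genes and list members were named after their values were seen. Members, lists and alternatives were chosen with earlier results of these data known. The procedure was tested on simulated data with known changes. Those values were independent between arrays, so the test does not cover deviations that arrays share. Same-numbered oleate and stearate arrays deviated together (correlations of 0.178 to 0.849 in 8 of 8 pairs), so a blocked count is given there. Correlations ran from -0.626 to 0.516 with control (3 of 7 over 0.1), from -0.141 to 0.95 with linoleate (6 of 7) and from 0.0708 to 0.877 with palmitate (7 of 8), so not every pair met the limit of 0.1. Results for some genes are not reported here. Slides and scan times were not analysed here.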

Additional observations from a re-analysis of the deposited data

Results flagged for a closer look

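Of 118 groups of values examined for an array far from the rest, 14 held one, and chance alone flags about 1 group in 20. Oleate replicate 4 was the array in 11 of the 14. It was the lowest oleate array for Ucp3 (log2 intensity 6.15), Ucp2 (10.23), Crat (9.34), Mlycd (10.51), Ech1 (13.08), Pex19 (7.4), Lpcat1 (6.57) and Gpr22 (6.45). It was the highest for Otud1 (11.56), Fosl1 (9.78) and the mean of the hypoxia-induced genes (11.44). Oleate replicate 8 was the lowest for Eci2 (8.46) and LOC500621 (7.63), and control replicate 4 was the highest control array for Angptl4 (6.56).

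Among the 41 genes called between oleate and control, 19 differences between fatty acids given here passed limma's test of the difference itself. These genes had been chosen on the same oleate arrays, and values for genes detected on at most 3 arrays of the other group are fitted differences. Against stearate their bounds are at least 1.49-fold for Ucp3 and at least 1.08-fold for Plin5, with none for Slc27a1, and against palmitate at least 2.07-fold for Ucp3 and at least 1.36-fold for Plin5. Between oleate and stearate the log2 differences were 2.14 for Angptl4, 1.66 for Pik3c2g, 1.3 for Pex19, 1.24 for Plin5, 1.13 for Retsat, 1.03 for Slc27a1 and 0.96 for Cdo1. They were 0.88 for Ucp3, 0.87 for Impa2, 0.86 for Ech1, 0.74 for Cpt1b, 0.73 for Aqp7, 0.69 for Slc25a20, -1.15 for Fam180a and -2.63 for Hamp. Between oleate and palmitate they were 1.5 for Ucp3, 1.1 for Cdo1, 0.8 for Plin5 and 0.51 for Ephx2. Both differences of Cdo1 are a smaller fall with oleate, since its mean was below control with all of these fatty acids.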

How the results depend on the processing

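No named gene that passed the test turned its direction under any alternative run. Medians of lists near 0 did turn: that of the hypoxia list was 0.19 and became -0.09 without oleate replicate 4, that of NRF2 targets was 0.06 and became -0.02, and with median scaling those of fatty acid synthesis (0.05) and ribosomal proteins (0.1) became -0.07 and -0.01. Of the 41 genes called between oleate and control 12 passed under all 27 alternatives, among them Acot1, Angptl4, Aqp7, Lipe, Pdk4, Pik3c2g, Plin5, Pnpla2, Retsat, Ucp2 and Ucp3. With median scaling the counts of genes called were 13 for oleate against control, 786 against stearate and 78 against palmitate. With only the groups compared they were 25 against control and 269 against stearate. With the replicate number as a block they were 72 against control, 999 against stearate, 0 against linoleate and 692 against palmitate, and apart from stearate not every same-numbered pair deviated together. With array weights they were 86 against control, 1439 against stearate, 1 against linoleate and 1136 against palmitate. With the signal range as a covariate the count against palmitate was 522. Without oleate replicates 4 and 8, chosen after seeing the data, it was 746 against stearate, 1 against linoleate and 530 against palmitate. Leaving out 1 array at a time gave 31 to 41 genes against control, 374 to 743 against stearate, 0 to 2 against linoleate and 229 to 698 against palmitate, the highest in each case without oleate replicate 4 (against control also without replicate 8). The cause of these changes was not tested. Other background, detection and probe settings and the authors' value table gave 35 to 41 genes against control. Genes near the background have only a bound, and dim changes were not detectable.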

Other observations

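Other lists also held no gene past the test between oleate and control. The list of interferon response genes had 0 calls of 19 tested members and a median log2 difference of -0.38, below the -0.01 of all genes, with 3 members above 0 and 1 member lower at an unadjusted p under 0.05. Circadian clock genes (0 of 11, median -0.05), genes of autophagy and muscle protein breakdown (0 of 22, median 0) and extracellular matrix genes (0 of 19, median -0.04) lay near the median of all genes. Ribosomal protein genes had 0 calls of 25 and a median of 0.10. Summed intensities of 3 red cell markers ran from 252 to 4610 with oleate, against 207 to 3190 in controls.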
